A study of Homo sapiens with 12 samples.

Results

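The mRNAs of 10 subunits of protein phosphatase 2A (PP2A) were followed in total and polysome-associated RNA of HEK293T cells, a human embryonic kidney cell line. The genes were chosen by name: the scaffold subunits PPP2R1A and PPP2R1B, the catalytic subunits PPP2CA and PPP2CB, the B55 subunit PPP2R2A, and the B56 subunits PPP2R5A to PPP2R5E. They are 10 of 59385 gene names in the count table, and all 10 were among the 18166 genes with enough counts to be tested. The rule itself uses names and no measured value, though the set was picked with earlier results of these data known.

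Both lines carried a doxycycline (Dox)-inducible shRNA, against PRRC2B in shPRRC2B cells and non-silencing in shCtrl cells, and RNA was collected 36 h after induction. PRRC2B is an RNA-binding protein, and the study asked how its loss changes translation. Each line and fraction was sequenced in 3 biological replicates, which gave 12 libraries of poly(A)-enriched RNA with 9855734 to 20837542 counted read pairs. Per the study's methods each line was a single clone, so the effect of an shRNA and a difference between 2 clones cannot be told apart. PRRC2B itself lay at 281 ± 28.7 CPM (counts scaled to library size by edgeR's TMM method, mean ± SD, n = 3) in shCtrl total RNA and at 100.3 ± 2.32 CPM in shPRRC2B total RNA. The transgenes that define HEK293T are not human genes of the table, so the line was not checked by them.

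PP2A is a serine/threonine phosphatase that works as a trimer. A scaffold subunit built of HEAT repeats holds a catalytic subunit on one side and a regulatory B subunit on the other, and the B subunit decides which substrates are met. B55 trimers are best known for exit from mitosis and B56 trimers for the protection of centromeric cohesion and kinetochore signalling. The scaffold and catalytic subunits each exist as a pair of paralogs from separate genes, and B subunits compete for the same core.

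PPP2R1A (chr19:52170936-52229518, GRCh38, plus strand) is the member for which a PRRC2B binding site was listed by the study. The PAR-CLIP peak tables, which map crosslinked RNA, hold a site of 100 bases at chr19:52226148-52226247 for full-length PRRC2B. The P2 fragment, its RNA-binding piece, has a site 1 base further on, at chr19:52226149-52226248. On the canonical transcript the site lies in exon 15, in the 3′ UTR, 166 bases past the stop codon. The study's text places it in the coding sequence instead. No other member has an entry in those 2 tables. The study also tested PPP2R1A by immunoprecipitation of PRRC2B and by RT-qPCR of polysome fractions. It reports binding to endogenous PRRC2B for all the bound mRNAs that it tested. For those with lower translation efficiency, PPP2R1A among them, it reports shifts to lighter fractions after induction. These shifts were read at earlier times than the 36 h of the libraries used here. Of the site's bases, 57 are A or G and 43 are C or T, and 22.4% of the 100-base windows of the same transcript hold at least as many A or G. This is the only PRRC2B site listed among these genes, and its 30 bases with the most A or G, 23 of 30, are shown. They were picked by base composition and not by a crosslink position, so they need not be the point of contact. The plus strand is printed, with the longest unbroken run of A and G in capitals.
PPP2R1A, chr19:52226174-52226203: AGGGGAGcacggggttggacaggacagtga

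Read pairs of near-identical genes can be exchanged in mapping, so the coding sequences of the scaffold paralogs were compared. The longest stretch that the coding sequences share exactly is 17 bases. Both windows of 60 coding bases around it are shown from 5′ to 3′ on the coding strand, with the 48 identical bases in capitals. The PPP2R1A window covers coding bases 112 to 171 (chr19:52201977-52205964, split by an intron). The PPP2R1B window covers coding bases 148 to 207 (chr11:111764904-111765351, minus strand, also split).
PPP2R1A: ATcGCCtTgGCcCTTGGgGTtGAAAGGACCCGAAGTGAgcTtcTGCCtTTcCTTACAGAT
PPP2R1B: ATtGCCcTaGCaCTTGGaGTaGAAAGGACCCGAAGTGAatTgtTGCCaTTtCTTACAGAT
The catalytic paralogs share at most 26 bases of coding sequence. Among the B56 genes the longest shared stretch is 32 bases, between PPP2R5A and PPP2R5E, and it is the single 32-base word shared within these paralog groups. Gene bodies of 3 members overlap a named protein-coding gene on the opposite strand by more than 100 bases, PPP2R1B with SIK2 over 3948 bases, PPP2R5D with MEA1 over 1200 bases and PPP2R1A with ZNF836 over 708 bases. These spans include introns, and how much of each overlap is exonic was not tested. The stated counting options use no strand, so read pairs in exons of both genes cannot be told apart by strand. In GENCODE 44, PPP2CA lies almost whole within a gene without a symbol on its own strand, with 31827 shared bases. PPP2R1A and PPP2R5A also share 5845 and 2132 bases with such genes. Counting used GENCODE 38, and whether read pairs were lost in these overlaps was not tested.

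To compare levels between genes, CPM were divided by the length of the canonical transcript in kilobases, which assumes that these cells use that transcript. On this scale PPP2R1A was highest in shCtrl total RNA, at 55.4 ± 3.67 CPM per kb (mean ± SD, n = 3). PPP2R5C followed at 19.9 ± 0.245 and PPP2R5D at 17.5 ± 0.565 CPM per kb. Next came PPP2R2A (14.0), PPP2CB (13.7), PPP2CA (12.8) and PPP2R5A (12.8 CPM per kb), and in this run of 4 genes the replicate ranges of neighbours overlapped. PPP2R1B (8.07) and PPP2R5B (7.89 CPM per kb) also overlapped, and PPP2R5E was lowest at 5.62 ± 0.375 CPM per kb. In shCtrl cells, then, the second scaffold mRNA stood far below the first in total RNA.

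In shPRRC2B total RNA the first place was kept by PPP2R1A at 41.5 ± 1.04 CPM per kb, PPP2R5D (26.4) came before PPP2R5C (22.4), and PPP2CA (17.9) came before PPP2R2A (15.9) and PPP2CB (14.3 CPM per kb), with no overlap between these neighbours. PPP2R1B stood at 13.3 ± 0.702 CPM per kb, within the range of PPP2CB. In shCtrl polysome RNA, PPP2R1A (64.3 ± 19.2) and PPP2R5C (42.8 ± 4.58 CPM per kb) led with overlapping ranges. In shPRRC2B polysome RNA, PPP2R5C led at 38.5 ± 2.72 CPM per kb without overlap, followed by PPP2CB (27.3 ± 6.97) and PPP2R1A (26.6 ± 3.36 CPM per kb), which overlapped each other. PPP2R5E was lowest in all 4 groups.

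**Figure D1:**
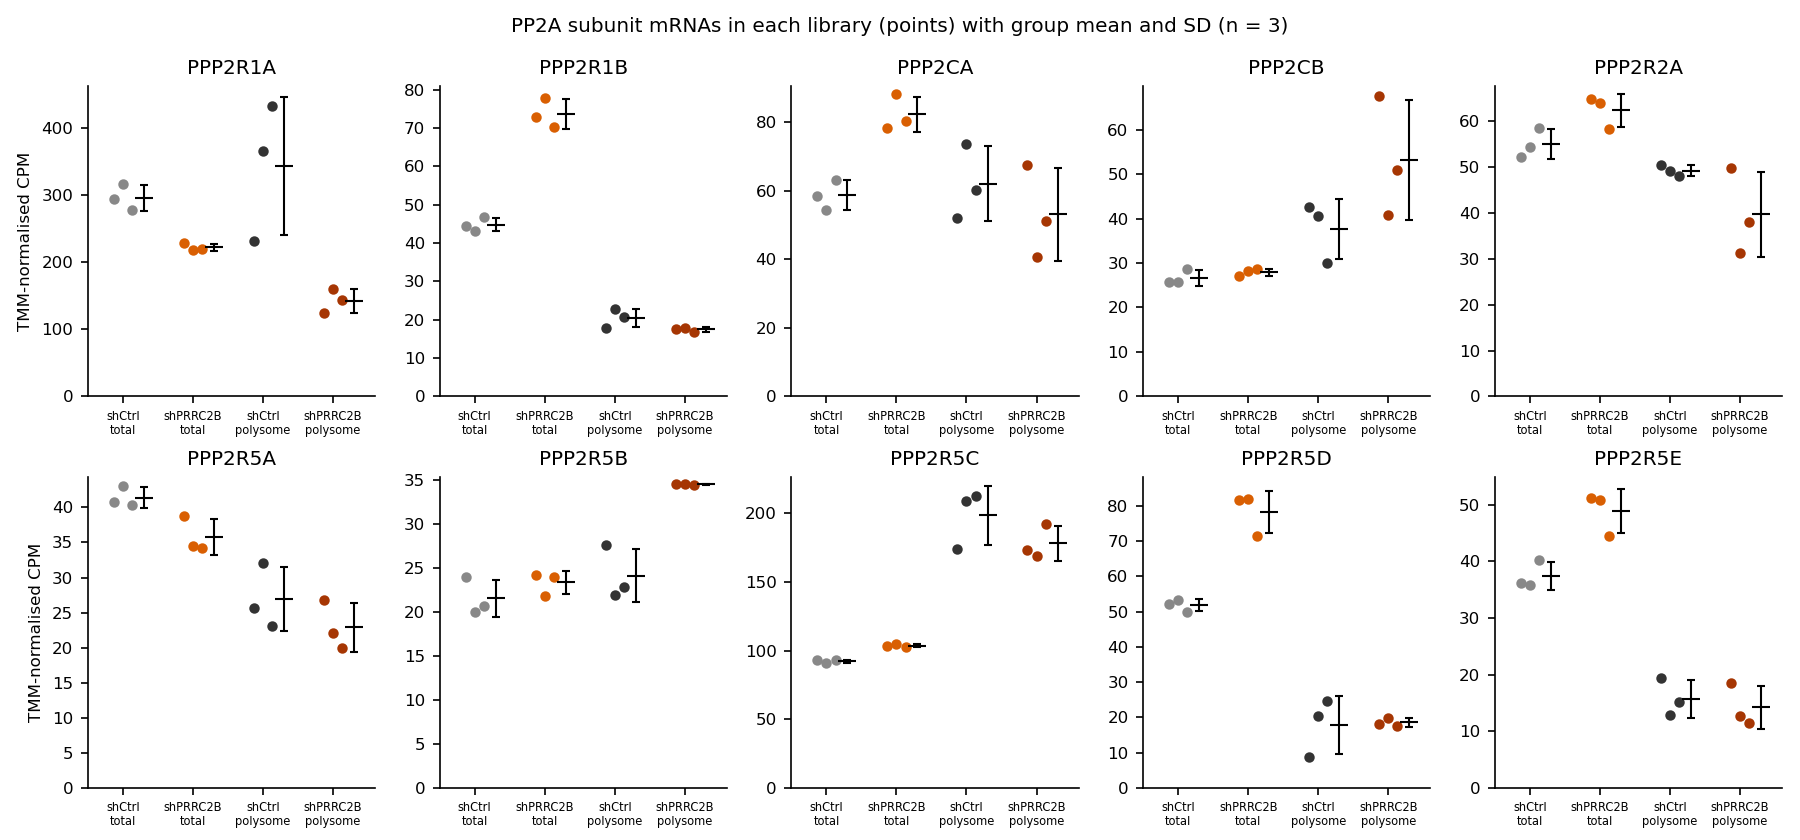
TMM-normalised CPM (y axis, linear, from 0) of each of the 10 subunit mRNAs in the 3 libraries of each line and fraction (points), with the mean and SD beside them. PPP2R1A falls in shPRRC2B polysome RNA, to 124 to 160.3 CPM from 232 to 434 CPM, while PPP2R1B rises in shPRRC2B total RNA, to 70.3 to 77.9 CPM from 43.3 to 46.7 CPM.

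The comparison the study was built on is that of translation efficiency (TE), the ratio of polysome to total RNA of a gene, between the lines. It was tested as an interaction term in edgeR's quasi-likelihood fit of all 12 libraries, with p-values adjusted by the Benjamini-Hochberg method over all 18166 genes. Calls of TE-up and TE-down required an adjusted p below 0.05 together with a change of more than 0.5 on the log2 scale. By this rule 3 of the 10 members were TE-down, both scaffold mRNAs and PPP2CA, and none was TE-up. Over all genes tested 16.4% were TE-down and 10.7% TE-up. The fitted TE change lay below 0 for 8 of the 10 members, against 51.7% of all genes, and its median was -0.51 over the members and -0.03 over all genes. Libraries are scaled to each other, so each change is relative to the bulk of the genes, and in bulk RNA fewer cells with an mRNA and fewer copies per cell cannot be told apart.

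The scaffold PPP2R1A, the more abundant scaffold in most tissues, was measured at 295, 317 and 278 CPM in the shCtrl total libraries and at 228, 218 and 220.5 CPM in the shPRRC2B total libraries. Its polysome values were 232, 367 and 434 CPM in shCtrl cells and 124, 160.3 and 143 CPM in shPRRC2B cells. The lines did not overlap in either fraction, and the shCtrl polysome libraries were the most spread of the 4 groups. Polysome RNA fell by 1.27 on the log2 scale (SE 0.177, edgeR adjusted p = 2.22e-05). Total RNA changed by -0.42 (SE 0.173, edgeR adjusted p = 0.0722), short of the threshold. TE fell by 0.85 on the log2 scale (SE 0.246, edgeR adjusted p = 0.0160). With each library left out in turn, the TE change ranged from -1.11 to -0.71 and the polysome change from -1.58 to -1.17, and both were called in all 12 fits.

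The second scaffold, PPP2R1B, was TE-down with its called change in the other fraction. In total RNA it lay at 44.5, 43.3 and 46.7 CPM in shCtrl cells and at 72.8, 77.9 and 70.3 CPM in shPRRC2B cells. In polysome RNA it lay at 17.9, 22.8 and 20.6 CPM in shCtrl cells and at 17.7, 18.0 and 16.8 CPM in shPRRC2B cells, where the replicate ranges just overlapped. Total RNA was higher in shPRRC2B cells by 0.72 on the log2 scale (SE 0.120, edgeR adjusted p = 0.000224). The polysome change was -0.22 (SE 0.132, edgeR adjusted p = 0.185) and did not pass. TE fell by 0.94 on the log2 scale (SE 0.178, edgeR adjusted p = 0.00104), and stayed between -1.06 and -0.90 with any single library left out. So the polysome share of PPP2R1B was lower in shPRRC2B cells while its polysome level was not called. Without shCtrl polysome replicate 1 the polysome change was -0.40 (edgeR adjusted p = 0.0202), under the minimum size.

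On a per-length scale the mRNA of PPP2R1A stood 6.73-fold above that of PPP2R1B in shCtrl total RNA and 3.10-fold above it in shPRRC2B total RNA. In log2 units the ratio was 2.75, 2.90 and 2.60 in the shCtrl libraries and 1.69, 1.52 and 1.69 in the shPRRC2B libraries. Among polysome libraries it was 3.68, 4.003 and 4.38 in shCtrl cells and 2.80, 3.14 and 3.07 in shPRRC2B cells, which is 16.2-fold and 8.01-fold on average. The lines did not overlap in either fraction. The difference of the scaffold balance between the lines was -1.12 in total RNA and -1.02 in polysome RNA on the log2 scale, each with a two-sided exact permutation p of 0.1, the smallest that 3 against 3 libraries can give (also 0.1 after adjustment over the 4 balances tested).

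**Figure D2:**
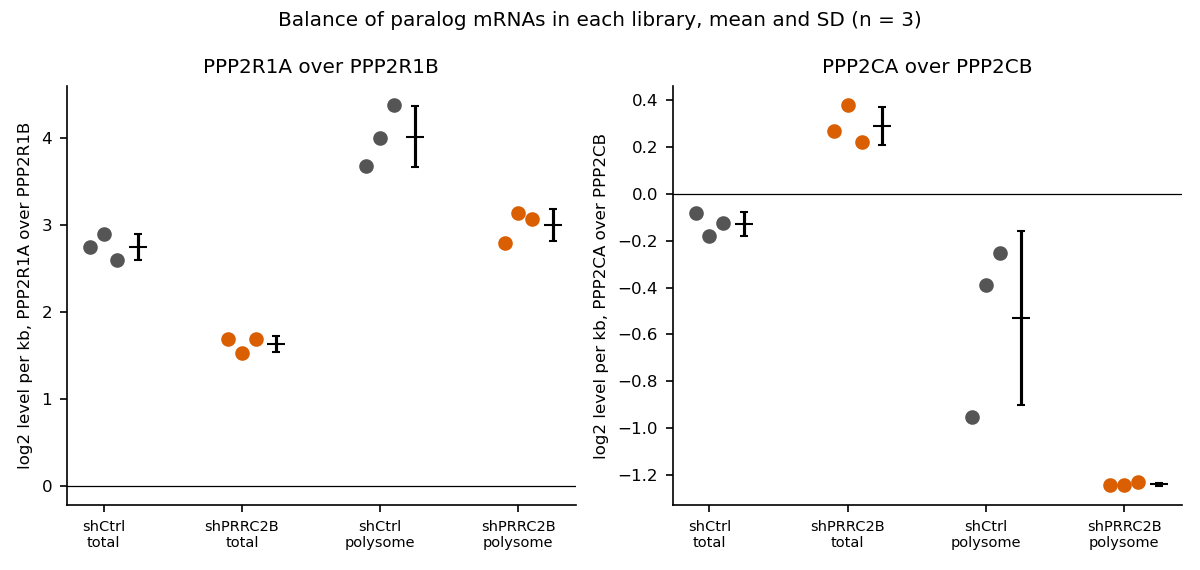
Log2 ratio of length-scaled CPM (y axis) of the scaffold mRNAs (left) and of the catalytic mRNAs (right) in each library (points), with mean and SD (n = 3 per group). The PPP2R1A over PPP2R1B ratio is lower in shPRRC2B cells in both fractions, while the PPP2CA over PPP2CB ratio is higher in total RNA and lower in polysome RNA.

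PPP2CA, which encodes the alpha catalytic subunit, was TE-down with neither fraction called by itself. Its total RNA was 58.5, 54.3 and 63.2 CPM in shCtrl cells and 78.3, 88.1 and 80.3 CPM in shPRRC2B cells, with no overlap. Its polysome RNA was 52.0, 73.7 and 60.2 CPM in shCtrl cells and 67.3, 40.6 and 51.2 CPM in shPRRC2B cells, with broad overlap. The total change of 0.49 on the log2 scale passed the test (SE 0.162, edgeR adjusted p = 0.0272) but not the minimum size of 0.5, and the polysome change was -0.22 (SE 0.167, edgeR adjusted p = 0.295). TE fell by 0.71 on the log2 scale (SE 0.233, edgeR adjusted p = 0.0307). This call was the least firm of the 3, since 7 of the 12 fits with 1 library left out lost it (edgeR adjusted p up to 0.0826), with changes between -0.98 and -0.57. The libraries whose loss ended it were shCtrl total replicates 1 and 2, shPRRC2B total replicates 2 and 3, shCtrl polysome replicate 2, and shPRRC2B polysome replicates 2 and 3.

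PPP2CB, the beta catalytic subunit, went the other way in its fitted values. Its total RNA of 25.7, 25.6 and 28.7 CPM in shCtrl cells and 27.0, 28.1 and 28.6 CPM in shPRRC2B cells overlapped. Polysome values were 42.5, 40.5 and 29.9 CPM in shCtrl cells and 67.7, 40.8 and 51.0 CPM in shPRRC2B cells. These overlapped as well, with shPRRC2B replicate 1 far above the rest. The polysome change was 0.50 (SE 0.172, edgeR adjusted p = 0.0257), just under the minimum size, and it was 0.17 (edgeR adjusted p = 0.416) without that replicate. The TE change was 0.43 (SE 0.241, edgeR adjusted p = 0.197) and was not called.

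Relative to each other, the catalytic mRNAs differed between the lines in opposite directions in the 2 fractions. The PPP2CA over PPP2CB ratio, per length, was 0.914 in shCtrl total RNA and 1.22 in shPRRC2B total RNA, a log2 difference of 0.42. In polysome RNA it was 0.693 in shCtrl cells and 0.424 in shPRRC2B cells, a log2 difference of -0.71. The libraries of the lines did not overlap in either fraction, and the two-sided exact permutation p was 0.1 for each, the smallest possible. The 3 shPRRC2B polysome libraries gave log2 ratios between -1.24 and -1.23, although both mRNAs were high in replicate 1 of that group, at 67.3 CPM for PPP2CA and 67.7 CPM for PPP2CB.

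Among the regulatory subunits no member passed the TE thresholds. PPP2R2A (B55 alpha), the subunit that counters cyclin-dependent kinase phosphorylation at mitotic exit, was measured at 52.1, 54.3 and 58.5 CPM in shCtrl total RNA and 64.8, 64.0 and 58.3 CPM in shPRRC2B total RNA. Its polysome RNA was even across shCtrl cells, at 50.4, 49.2 and 48.1 CPM, and uneven in shPRRC2B cells, at 49.7, 31.3 and 38.1 CPM. The lines overlapped in both fractions. The TE change was -0.49 (SE 0.203, edgeR adjusted p = 0.0822). Without shPRRC2B polysome replicate 1 it was -0.75 (edgeR adjusted p = 0.00415) and called.

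PPP2R5D (B56 delta) was the B56 member with a change in total RNA. It lay at 52.3, 53.3 and 50.0 CPM in shCtrl cells and at 81.7, 81.9 and 71.6 CPM in shPRRC2B cells, with no overlap. The total change was 0.59 (SE 0.214, edgeR adjusted p = 0.0395), and it kept the call in 2 of the 12 fits with 1 library left out (adjusted p up to 0.117), with changes of 0.55 to 0.66. Its polysome values of 8.80, 20.3 and 24.7 CPM in shCtrl cells and 18.2, 19.9 and 17.6 CPM in shPRRC2B cells overlapped. The lowest of them rests on 94 counts. The TE change was -0.54 (SE 0.321, edgeR adjusted p = 0.230), the widest error of the 10 members, and without shCtrl polysome replicate 1 it was -0.91 (edgeR adjusted p = 0.000576).

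PPP2R5B (B56 beta) was the member with a called rise in polysome RNA. Polysome values were 27.5, 21.9 and 22.8 CPM in shCtrl cells and 34.5, 34.5 and 34.4 CPM in shPRRC2B cells, with no overlap. Total RNA overlapped, at 24.0, 20.0 and 20.7 CPM in shCtrl cells against 24.2, 21.8 and 24.0 CPM in shPRRC2B cells. The polysome change was 0.51 (SE 0.139, edgeR adjusted p = 0.00605), close to the minimum size. With 1 library left out, it ranged from 0.35 to 0.54, and the call was lost without shCtrl polysome replicate 2 or 3 or any of the 3 shPRRC2B polysome libraries. The TE change was 0.40 (SE 0.193, edgeR adjusted p = 0.136).

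PPP2R5E (B56 epsilon), the least abundant member per length, was higher in shPRRC2B total RNA without overlap, at 51.2, 50.9 and 44.5 CPM against 36.2, 35.7 and 40.3 CPM. Its total change of 0.39 did not pass (SE 0.169, edgeR adjusted p = 0.0870). Polysome RNA overlapped, at 19.4, 12.8 and 15.1 CPM in shCtrl cells and 18.6, 12.7 and 11.4 CPM in shPRRC2B cells. The TE change was -0.53 (SE 0.254, edgeR adjusted p = 0.132), and -0.84 (edgeR adjusted p = 0.0122) without shPRRC2B polysome replicate 1.

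PPP2R5C (B56 gamma), per length the most abundant B56 mRNA in 3 of the 4 groups (PPP2R5D led in shPRRC2B total RNA), was nearly constant within each total RNA group, at 93.0, 91.0 and 92.8 CPM in shCtrl cells and 103, 105 and 103 CPM in shPRRC2B cells. Its polysome RNA was 174, 209 and 212 CPM in shCtrl cells and 173, 169 and 192 CPM in shPRRC2B cells. The lines did not overlap in total RNA and overlapped in polysome RNA, and the TE change was -0.32 (SE 0.160, edgeR adjusted p = 0.148). PPP2R5A (B56 alpha) had the smallest TE change, -0.02 (SE 0.209, edgeR adjusted p = 0.975). It lay at 40.8, 43.1 and 40.3 CPM in shCtrl total RNA and 38.8, 34.4 and 34.2 CPM in shPRRC2B total RNA, without overlap. Its polysome values of 25.7, 32.01 and 23.1 CPM in shCtrl cells and 26.7, 22.2 and 19.9 CPM in shPRRC2B cells overlapped.

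**Figure D3:**
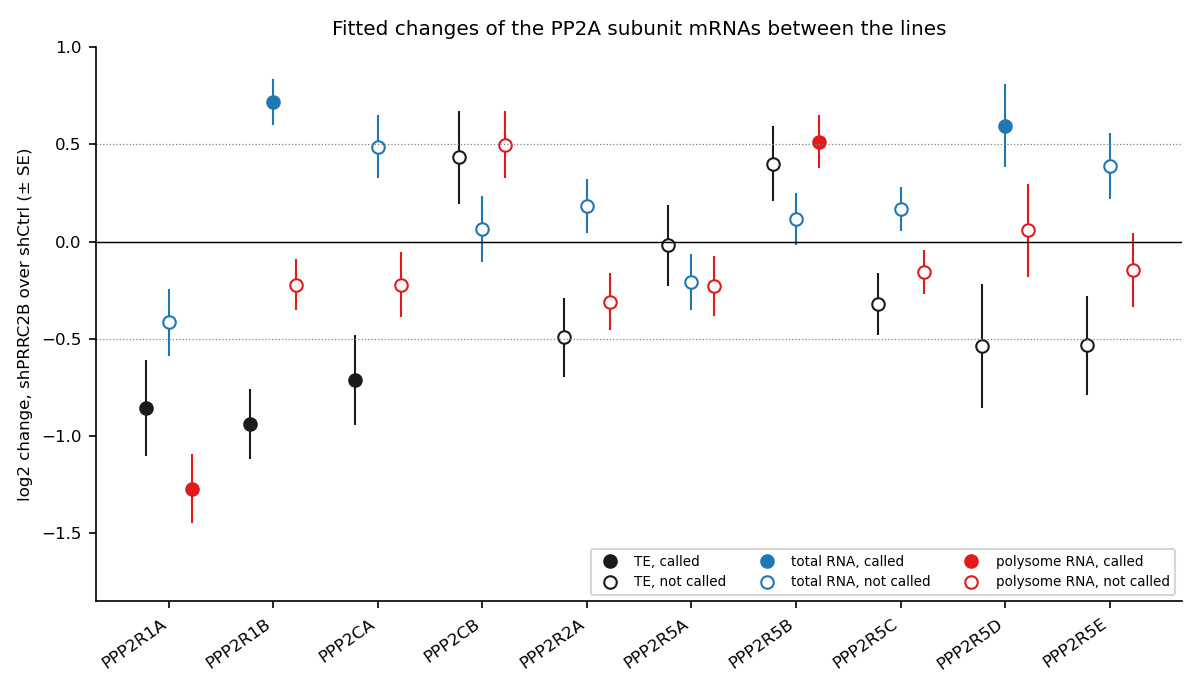
Fitted log2 change between the lines (y axis, shPRRC2B over shCtrl, bars ± SE) of TE, total RNA and polysome RNA for each member, with filled points past both thresholds and dotted lines at the minimum size of 0.5. PPP2R1A is called in TE and polysome RNA, PPP2R1B in TE and total RNA, PPP2CA in TE, PPP2R5B in polysome RNA and PPP2R5D in total RNA.

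Counted over the members, total RNA rose for 2 (PPP2R1B and PPP2R5D) and fell for 0 of 10, where 14.9% of all genes rose and 14.1% fell. The fitted total RNA change lay below 0 for 2 members, against 47.8% of all genes, with a median of 0.17 over the members and 0.04 over all genes. All 3 shPRRC2B total libraries lay above all 3 shCtrl libraries for 5 members and below them for 2, against 34.1% and 28.8% of all genes. Polysome RNA rose for 1 member (PPP2R5B) and fell for 1 (PPP2R1A), where 18.4% of all genes rose and 21.4% fell, and its fitted change lay below 0 for 7 members against 50.5% of all genes (median -0.19 against -0.01). The polysome libraries of the lines were separate for the same 2 members, 1 above and 1 below, where 21.6% and 21.5% of all genes were separate in those directions. Replicate 1 of shPRRC2B polysome RNA decided several of these values. Without it 5 members were TE-down, with PPP2R2A and PPP2R5E added, and 4 fell in polysome RNA, namely PPP2R1A, PPP2CA (-0.54, edgeR adjusted p = 0.0119), PPP2R2A (-0.61, edgeR adjusted p = 0.00151) and PPP2R5E (-0.50, edgeR adjusted p = 0.0374), while none rose. In that fit 18.8% of all genes were TE-down and 23.9% fell in polysome RNA, with medians over all genes of -0.10 and -0.11.

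Within each line, the polysome RNA of the members was also set against their total RNA, with both fractions on one scale. In shCtrl cells PPP2R5C was enriched in polysomes by 1.10 on the log2 scale (SE 0.115). Depleted were PPP2R1B (-1.13), PPP2R5A (-0.62), PPP2R5D (-1.54) and PPP2R5E (-1.24). That is 1 member up and 4 down, where 32.5% of all genes were up and 39.8% down. In shPRRC2B cells PPP2R5C (0.78), PPP2CB (0.93) and PPP2R5B (0.56) were up and the other 7 down, from -0.63 for PPP2CA to -2.07 for PPP2R1B and -2.08 for PPP2R5D, where 36.6% of all genes were up and 42.3% down. Fitted values lay below 0 for 5 members in shCtrl cells, against 54% of all genes, and for 7 in shPRRC2B cells, against 53%. All of the calls had edgeR adjusted p of 0.00272 or less. The scaling between fractions sets them: with TMM factors computed within each fraction, 0 members were up and 9 down in shCtrl cells and none was up and 7 down in shPRRC2B cells, where 17.6% of all genes were up and 58.8% down in shCtrl cells and 23.6% up and 56.1% down in shPRRC2B cells. Such a scaling moves all members of a line by about the same amount, and PPP2R5C was highest in shCtrl cells and PPP2R5D lowest in both lines in either case.

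The fitted TE changes of the members tended to be lower for longer annotated transcripts. PPP2CB (1946 nt) and PPP2R5B (2729 nt), the shortest, had the only values above 0. PPP2R1A (5352 nt) and PPP2R1B (5553 nt), with 3′ UTRs of 3537 and 3719 nt, had the lowest. The order was not strict: PPP2R5E (6655 nt), the longest, stood at -0.53, PPP2R5C (4630 nt) lay above PPP2CA (4582 nt), and PPP2R5D (2973 nt) lay below the longer PPP2R5A (3245 nt) and PPP2R2A (3923 nt). Over the 10 members Pearson's r between TE change and transcript length was -0.82 (Spearman's rho -0.71), with 3′ UTR length -0.87 (rho -0.76) and with coding length -0.38 (rho -0.45). These describe 10 genes read from the same 12 libraries. Terciles of all genes by length went the same way. In the shortest tercile of genes (up to 2160 nt) the median TE change was 0.32 and 3.47% were TE-down, in the middle tercile -0.09 and 15.0%, and in the longest (from 4200 nt) -0.53 and 36.9%. Of the members, 1 falls in the shortest tercile, 4 in the middle and 5 in the longest.

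When each library's dependence on transcript length was removed by a smooth offset, no member was TE-down, where 10.6% of all genes were TE-down and 11% TE-up in that fit. The TE change became -0.36 for PPP2R1A (edgeR adjusted p = 0.315), -0.43 for PPP2R1B (edgeR adjusted p = 0.0843) and -0.33 for PPP2CA (edgeR adjusted p = 0.310), and the median of the members moved to -0.07. Removing the trend on coding length instead, a setting added after the data were seen, kept PPP2R1B (-0.66, edgeR adjusted p = 0.00973) and PPP2CA (-0.70, edgeR adjusted p = 0.0304) TE-down. It left PPP2R1A at -0.58 (edgeR adjusted p = 0.0782) and made PPP2R5B TE-up (0.61, edgeR adjusted p = 0.0293). In that fit 13.2% of all genes were TE-down and 11.4% TE-up. The fall of PPP2R1A in polysome RNA and the rise of PPP2R1B in total RNA were called with the transcript length trend removed as well, at -0.90 and 0.58. Whether the length trend comes from the cells or from the libraries was not tested.

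**Figure D4:**
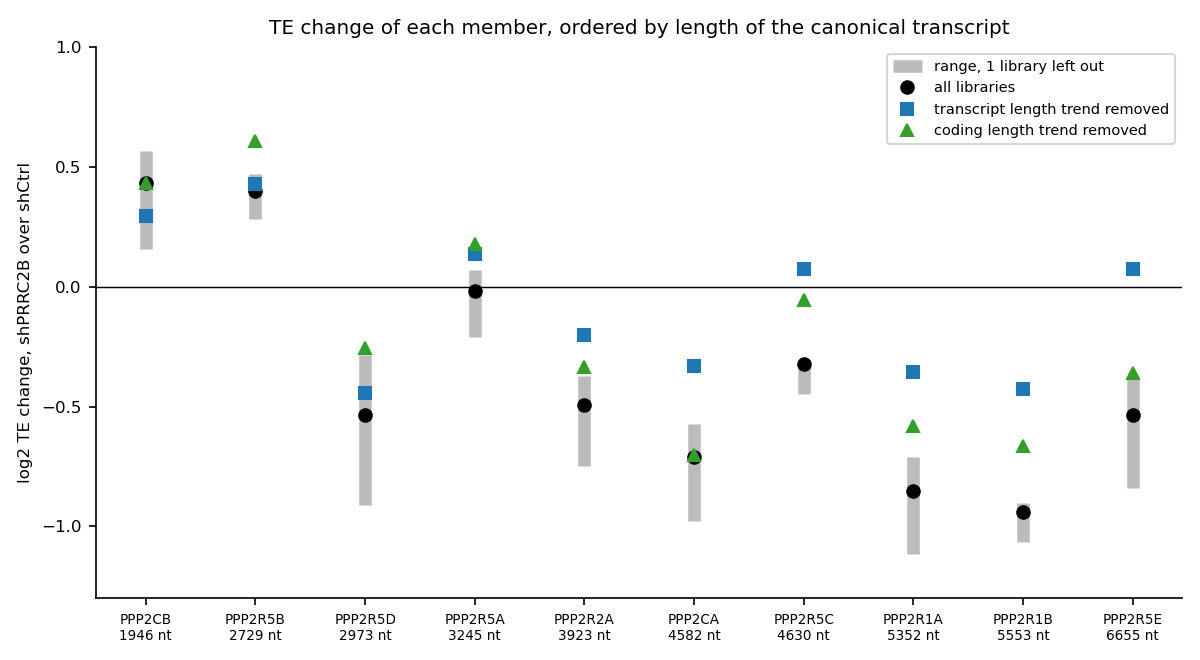
Log2 TE change (y axis, shPRRC2B over shCtrl) of the members ordered by the length of their canonical transcript (x axis), with the fit of all 12 libraries (circles), the range with 1 library left out (grey bars), and the values with the trend on transcript length (squares) or coding length (triangles) removed. Circles range from 0.43 for PPP2CB to -0.94 for PPP2R1B without falling at every step, and all squares lie between -0.44 and 0.43.

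Genes that work with PP2A were read from 5 lists, chosen with earlier results of these data known. Their counts stand beside 16.4% TE-down and 10.7% TE-up over all genes. Of the other regulatory subunits 7 were tested, with 3 TE-down and 1 TE-up. The TE-down genes were STRN (-1.55) and STRN3 (-1.51), the striatins that join PP2A to the STRIPAK complex, and PPP2R3A (-1.13), a B″ subunit. Of 8 further STRIPAK partners 3 were TE-down, among them SLMAP (-1.12) and CTTNBP2NL (-1.04), and FGFR1OP2 was TE-up (1.08). With the transcript length trend removed, STRN3 (-1.19) was TE-down and FGFR1OP2 (1.16) TE-up. STRN (-0.64), PPP2R3A (-0.51), SLMAP (-0.53) and CTTNBP2NL (-0.51) were not called. In that fit the other regulatory subunits had 1 TE-down and 1 TE-up gene (median -0.40). The STRIPAK partners had 0 TE-down and 2 TE-up (median -0.26). Over all genes 10.6% were TE-down and 11% TE-up there.

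Of 11 genes tested on the list of PP2A inhibitors and the kinase MASTL, which activates a pair of them, 3 were TE-down and 1 TE-up. The shares over all genes were 16.4% and 10.7%. The TE-down genes included SET (-1.10, SE 0.204, edgeR adjusted p = 0.000867) and ANP32E (-1.29, SE 0.307, edgeR adjusted p = 0.00511), which belong to families of acidic nuclear proteins that bind PP2A. PABIR1, an inhibitor of B55 trimers, was TE-up (0.88, SE 0.225, edgeR adjusted p = 0.00800). All 3 were called with the length trend removed, at -1.02, -1.10 and 1.38. SET fell in both fractions, by 0.53 in total RNA and by 1.63 in polysome RNA on the log2 scale. Of 5 factors for activation, methylation and assembly of the core, 1 was TE-down, the methylesterase PPME1 (-0.61, edgeR adjusted p = 0.0498), which removes the methyl group from the catalytic subunit.

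The related phosphatases PP4 and PP6 had 5 TE-down and 0 TE-up genes among 13 tested, with a median of -0.71. The shares over all genes were 16.4% and 10.7%. The largest falls were those of PPP6R3 (-1.66) and ANKRD52 (-1.33), regulatory subunits of PP6, and of PPP4R2 (-1.52), a regulatory subunit of PP4. With the transcript length trend removed, 4 were TE-down and 2 TE-up, against 10.6% and 11% of all genes, and the median was -0.01. PPP6R3 (-1.22) and PPP4R2 (-1.10) were called there, and ANKRD52 (-0.58) was not. The medians over the other lists were -0.16 for the regulatory subunits, -0.44 for the STRIPAK partners, -0.27 for the inhibitors and 0.02 for the activation factors, against -0.03 for all genes.

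Across the 12 libraries, the 5 genes whose log2(CPM + 1) followed that of PPP2R1A most closely, out of 10050 genes averaging 10 CPM or more, were RBMX (Pearson's r 0.984), PHGDH (0.978), SUCLG2 (0.972), PSAT1 (0.965) and TMEM268 (0.965). The libraries share the lines and fractions, which by themselves give genes with the same group means a high r. The other PP2A members were not near the top. PPP2R5A came closest at 0.420, PPP2R1B stood at 0.228 and PPP2CA at 0.179, and PPP2CB (-0.666) and PPP2R5B (-0.833) ran against PPP2R1A.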

How the data were processed

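Total and polysome RNA of HEK293T shCtrl and shPRRC2B cells was measured in 12 libraries. The authors trimmed read pairs with Trimmomatic 0.36, mapped them to GRCh38 with HISAT2 and counted them per gene name of GENCODE 38 with featureCounts of Subread 2.0.1, per the submitters' notes and the study's methods. The deposited values are raw counts without normalization, with 0 columns from other samples. Depth was 9855734 to 20837542 counts per library, so a member at 94 counts is measured less precisely than one at 8678.

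Groups came from the sample titles and the induction time from the study. The main test was that of edgeR 4.0.16 under R 4.3.3 (filterByExpr with a minimum count of 10, TMM, glmQLFit and glmQLFTest with no block), in 1 fit of the 4 groups, and p-values were adjusted over all 18166 genes by the Benjamini-Hochberg method. The thresholds were an adjusted p of 0.05 and a log2 change of 0.5. TMM factors were 1.34 to 1.47 for total and 0.681 to 0.742 for polysome libraries. Lengths came from GENCODE 44 canonical transcripts and were found for 15638 of the genes tested (86.1%). The coding length was found for 13592. Paralog ratios used log2 of CPM + 1 scaled by length and exact permutation tests in scipy 1.17.1. Replicates are labelled as biological, and the p-values of the fits set each change against the spread between them, within 1 clone per line.

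Alternatives were DESeq2 1.42.0 (with its size factors also used in edgeR), limma 3.58.1 on log2(CPM + 1), 2 further scalings, 2 further filters, no minimum change, 1 fraction alone, blocks for replicate or culture, length trends (lowess, span 0.3), other pseudocounts (0.5 and 5), and each library left out. The coding length trend was added after the data were seen. The fit was tested on simulated data. The members and lists were chosen with earlier results of these data known. Named beyond the members were PRRC2B, up to 3 genes per list with the largest called TE change, and the 5 genes most like PPP2R1A. Binding site positions were read from the study's tables and bases from GENCODE 44. Protein sequences were not used here.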

Additional observations from a re-analysis of the deposited data

Results flagged for a closer look

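The polysome-to-total ratio differed between the lines, by the interaction term of edgeR's fit, for 3 of the 10 members. Over all genes 16.4% were TE-down and 10.7% TE-up, and in the longest tercile, which holds all 3, 36.9% were TE-down. The log2 TE change of these members was -0.85 for PPP2R1A, -0.94 for PPP2R1B and -0.71 for PPP2CA. In all 3 the ratio was lower in shPRRC2B cells.
With the transcript length trend removed the values were -0.36, -0.43 and -0.33, and none of the 3 was called.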

How the results depend on the processing

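The 3 members called TE-down were also 3 under the replicate block, where 15.5% of all genes were TE-down, and this block changed no TE call. The titles do not say whether same-numbered libraries share a culture, and low correlations cannot decide it. Deviations of same-numbered libraries correlated from -0.107 to 0.0982 over 18 pairs of libraries, 0 of them above 0.1. Of the 18, 5 matched best with their own number. The culture block can give only TE. PPP2R1A in polysome RNA and PPP2R1B in total RNA were called in every alternative run, and so were PPP2R1A and PPP2R1B in TE, except with the transcript length trend removed and, for PPP2R1A, the coding length trend. PPP2CA lost its TE call also with total count scaling. The polysome changes of PPP2R5B and the total change of PPP2R5D lie near the thresholds, and depth limits members at low polysome counts. No difference between the lines can be credited to the shRNA alone, with 1 clone each. Causes of the shifts given here were not tested.

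With the transcript length trend removed, alone or with the replicate block, TE-down members went from 3 to 0, total RNA calls from 2 to 1 up and from 0 to 1 down (PPP2R1A), polysome rises from 1 to 0, members enriched in shCtrl polysomes from 1 to 4 and depleted from 4 to 1, and depleted in shPRRC2B polysomes from 7 to 1. Of all genes, the fit without the block had 10.6% TE-down, 13.3% up and 15.3% down in total RNA, and 19.7% up in polysome RNA. It had 29.7% enriched and 30.4% depleted in shCtrl polysomes, and 34.4% depleted in shPRRC2B polysomes. The main fit had 32.5%, 39.8% and 42.3% there. Without the block, signs turned in TE for PPP2R5A (0.14), PPP2R5C (0.074) and PPP2R5E (0.072), and in polysome RNA for PPP2R1B (0.15), PPP2CA (0.059), PPP2R5C (0.14) and PPP2R5E (0.29). Polysome against total turned in shCtrl cells for PPP2R1B (0.073), PPP2CB (-0.23), PPP2R2A (0.52) and PPP2R5E (0.20), and in shPRRC2B cells for PPP2R1A (1.01), PPP2CA (0.69), PPP2R2A (0.32) and PPP2R5E (0.28). With the block these values were 0.14, 0.073 and 0.076, then 0.16, 0.055, 0.14 and 0.29, then 0.070, -0.24, 0.52 and 0.18, and 0.99, 0.69, 0.31 and 0.26. With the coding length trend removed, 1 member was TE-up, 1 up in total RNA, 3 enriched in shCtrl polysomes and 4 depleted in shPRRC2B polysomes. The shares over all genes were 11.4%, 13.5%, 31% and 33.7% in that fit. Signs turned for PPP2R5A TE (0.18), PPP2CB total (-0.023), PPP2R5C polysome (0.030), and polysome against total of PPP2CA (-0.52), PPP2CB (-0.093) and PPP2R2A (0.023) in shCtrl and PPP2R1A (0.26) in shPRRC2B cells.

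With TMM within each fraction, total RNA had 1 rise and polysome RNA 2, shCtrl polysomes 0 enriched and 9 depleted, and shPRRC2B polysomes 0 enriched. The shares over all genes were 13%, 18.9%, 17.6%, 58.8% and 23.6%, in that order. Signs turned for PPP2R5A TE (0.045), for polysome against total in shCtrl of PPP2R1A (-0.79), PPP2CA (-0.93), PPP2CB (-0.51) and PPP2R5B (-0.84), and in shPRRC2B of PPP2CB (-0.0097), PPP2R5B (-0.38) and PPP2R5C (-0.16). With total count scaling there was 1 rise in total RNA, 0 in polysome RNA, 8 depleted and 0 enriched in shCtrl and 0 enriched in shPRRC2B polysomes. The shares over all genes were 11.8%, 17.6%, 58.8%, 17.7% and 23.6%, in that order. Signs turned for PPP2R5A TE (0.035), PPP2CB total (-0.010), in shCtrl PPP2R1A (-0.79), PPP2CA (-0.92), PPP2CB (-0.50) and PPP2R5B (-0.84), and in shPRRC2B PPP2CB (-0.0092), PPP2R5B (-0.38) and PPP2R5C (-0.17). Testing every gene with at least 1 count gave 0 polysome rises (against 8.65% of all genes), -0.023 for PPP2R5D polysome RNA and -0.051 for PPP2CA in shCtrl polysomes. At least 10 counts in every library gave 2 polysome rises (against 21.3% of all genes) and 0.047 for PPP2R5A TE. DESeq2 and its size factors each gave 0 polysome rises and 2 enriched in shCtrl polysomes. The shares over all genes were 18.6% and 33.5% with DESeq2, and 17.9% and 33.2% with its size factors. By limma 1 member rose in total RNA, against 13.6% of all genes. No minimum change gave 3 total RNA rises, 2 polysome rises and 2 enriched in shCtrl polysomes. The shares over all genes also grow without a minimum and were not computed, so these counts have no background beside them.

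With 1 library left out, TE-down members numbered 2 to 5, total RNA rises 1 to 2, polysome falls 1 to 4 and rises 0 to 2, and members enriched in shCtrl polysomes 1 to 2. Of all genes, these fits had 12.4% to 19.6% TE-down and 11.2% to 13.8% up in total RNA. They had 20.1% to 24.5% down and 13.2% to 17.7% up in polysome RNA, and 30.4% to 31.6% enriched in shCtrl polysomes. Values that could turn sign were PPP2R5A TE (-0.21 to 0.072), PPP2R5D polysome RNA (-0.37 to 0.26), and shCtrl polysome against total of PPP2CA (-0.083 to 0.16) and PPP2R1A (-0.0041 to 0.40).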
